A study of Mus musculus with 4 samples.

Results

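The genes described here are 10 inhibitors of the cell cycle and genes of the p53 response in cultured mouse neural stem cells: the inhibitors of cyclin-dependent kinases (CDKs) Cdkn1a, Cdkn1b, Cdkn2a, Cdkn2b, Cdkn2c and Cdkn2d, the p53 gene Trp53, and Mdm2, Ccng1 and Bax. They were taken by name from the 55414 genes of the count files, each matched 1 Ensembl identifier, and 10 of 10 passed the low-count filter, as did 19912 genes in all. RNA was sequenced from primary neural stem cells of the E14.5 cortex, expanded as floating spheres with EGF and basic FGF and then grown as an attached monolayer. The groups were Mettl4 knockout (KO) cultures, with 2 libraries, and wild type (WT) cultures, with 2 libraries, both derived and grown in the same way. Mettl4 encodes an adenosine methyltransferase. The sources name neither strain nor sex, nor the part of Mettl4 that was removed, nor whether the libraries of a genotype came from separate embryos or cultures. The p-values therefore measure only library-to-library spread, part of which may be technical. The series names proliferation, differentiation and splicing of neural stem cells as its subjects. The brakes on the cell cycle bear on the question of proliferation.

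A cell passes from G1 into S phase when cyclin-dependent kinases inactivate the retinoblastoma (Rb) proteins. Inhibitors of the Cip/Kip family (Cdkn1a and Cdkn1b here) bind cyclin and kinase complexes broadly, while those of the INK4 family (Cdkn2a to Cdkn2d) block the kinases that pair with D-type cyclins. The transcription factor p53 is held low by the ubiquitin ligase Mdm2 and, when stabilised by DNA damage or by the Cdkn2a product Arf, switches on Cdkn1a, Mdm2, Ccng1, Bax and other genes. In neural stem cells, loss of several of these brakes is known to raise self-renewal, and Cdkn2a is known to be kept low by the Polycomb protein Bmi1.

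Libraries held 18150389 and 19310668 counts in KO and 12812064 and 16883734 in WT. Levels are given as CPM, counts scaled to library size, with TMM factors between 0.948 and 1.05. Mettl4 itself stood at 15.6 and 17.6 CPM in the KO libraries, against 63.8 and 66.6 CPM in the WT libraries, lower in both libraries labelled KO. Reads outside the removed part can still be counted, and whether they make up the counts left in KO was not tested. The summed level of 10 neural stem cell markers lay between 5301 and 6347 CPM in KO and between 5409 and 5919 CPM in WT. This sum was mostly Fabp7, Vim and Slc1a3, and 10 of 10 markers passed the low-count filter. Of the log2 fold changes of these markers 5 were above 0 and 5 below. Sox2 alone stood at 196 and 213 CPM in KO and 174 and 196 CPM in WT, where the groups overlapped. The groups stood apart above WT in Sox9, at 137% of WT, and below WT in Vim, Hes1, Pax6 and Slc1a3. Of the defining markers of other cell types, 0 were at 0 in every library. The summed level of 6 neuronal markers was 1137 and 1358 CPM in KO and 1023 and 1297 CPM in WT, nearly all of it Map2 (1110 and 1335 CPM in KO, 1000 and 1266 CPM in WT), while the other neuronal markers reached at most 11.8 CPM, of Syt1. The 5 astrocyte markers summed to 364 and 306 CPM in KO and 220 and 303 CPM in WT, mostly Aldh1l1 (247 and 198 CPM in KO, 110 and 158 CPM in WT), and of their log2 fold changes 2 were above 0 and 3 below. The 6 oligodendrocyte lineage markers summed to 589 and 574 CPM in KO and 506 and 521 CPM in WT, mostly Olig2. Of their log2 fold changes 6 of 6 were positive, beside 49.7% of all genes tested. The groups overlapped in Cspg4 and Mbp. Sox10, at 298% of WT, rested on few counts, 61 and 46 in KO and 7 and 22 in WT. The 7 mesenchymal markers summed to 3.64 and 2.79 CPM in KO and 7.85 and 5.73 CPM in WT, mostly Acta2. Microglial, endothelial and red blood cell markers summed to at most 11.5 CPM in any library. Of these markers, 0 were called between the genotypes, and their part in the results on the 10 genes was not tested. In such cultures, fewer cells of a type and less RNA per cell cannot be told apart.

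None of the 10 genes was called between KO and WT. Called means an adjusted p under 0.05 in edgeR's quasi-likelihood test, Benjamini-Hochberg over all 19912 genes tested, where 1 gene (Mettl4 itself) or 0.00502% was called. The count of these genes called was 0 of 10, with 0 at an unadjusted p under 0.05 (2.77% of all genes), and each adjusted p was above 0.99. DESeq2 also called 0 of 10, with 0 at an unadjusted p under 0.05, where it called 0.0301% of all genes and had 1.46% at that unadjusted p. Limma-voom called 0 of 10, with 0 at an unadjusted p under 0.05, where it called 0.00502% of all genes and had 2.75% at that unadjusted p. Of the 10 log2 fold changes, KO minus WT, 3 were above 0 and 7 below it, at a median of -0.04, beside 9896 positive and 10016 negative and a median at 99.9% of WT over all genes tested. The largest in size was -0.40, for Cdkn2a.

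The intervals say how large a change these libraries leave room for. Standard errors of the 10 log2 fold changes ran from 0.14 to 0.22, against a median of 0.25 over all genes. The 95% intervals of 7 of the 10 genes lay within a 1.5-fold change in either direction, which held for 35.5% of all genes tested. The exceptions were Cdkn2a, Cdkn2b and Trp53. For 10 of 10 the interval lay within a 2-fold change. These are intervals for single genes, with no adjustment over genes. The share of all genes was not matched for level. Even Cdkn2b, the lowest of the 10 per length, was above 65.6% of the protein-coding genes tested. The higher share among the 10 was therefore not read as a result about them.

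**Figure D1:**
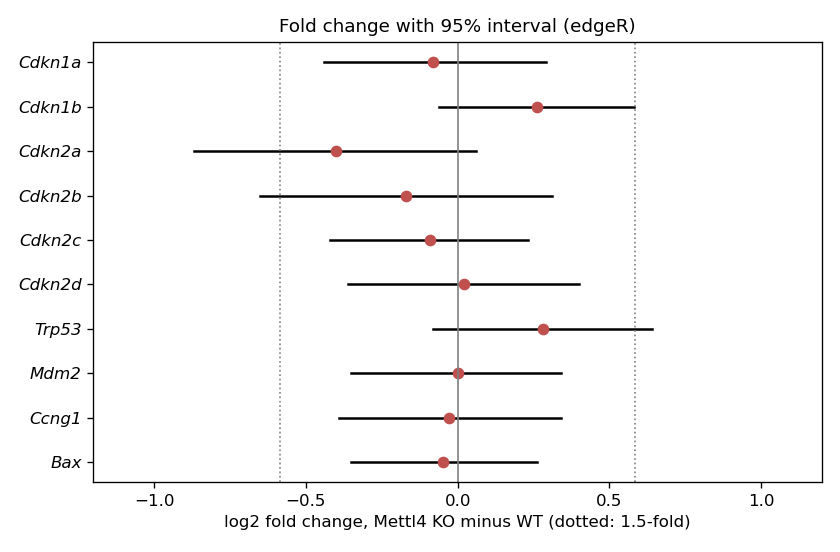
Log2 fold change of each of the 10 genes, Mettl4 KO minus WT (horizontal axis), with its 95% interval from edgeR. Points are estimates from 2 KO and 2 WT libraries, dotted lines mark a 1.5-fold change, and each interval includes 0, with Cdkn2a the farthest from it at -0.40.

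In 4 of the 10 genes the KO libraries lay wholly beyond the WT libraries, 2 above (Cdkn1b and Trp53) and 2 below (Cdkn2a and Cdkn2b). Over all genes tested the groups stood apart in 27.4%, 12.5% above and 14.9% below, and with so few genes the count was not read as a result about them. It also depended on the scaling: with library totals alone, Cdkn2b and Trp53 overlapped, Cdkn2c stood apart below WT, and the count was 3, with Cdkn1b and Cdkn2a apart under each of the scalings tried. With 2 libraries against 2, an exact permutation test of a single gene cannot go below p = 0.33 (two-sided), so it could not pass 0.05.

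**Figure D2:**
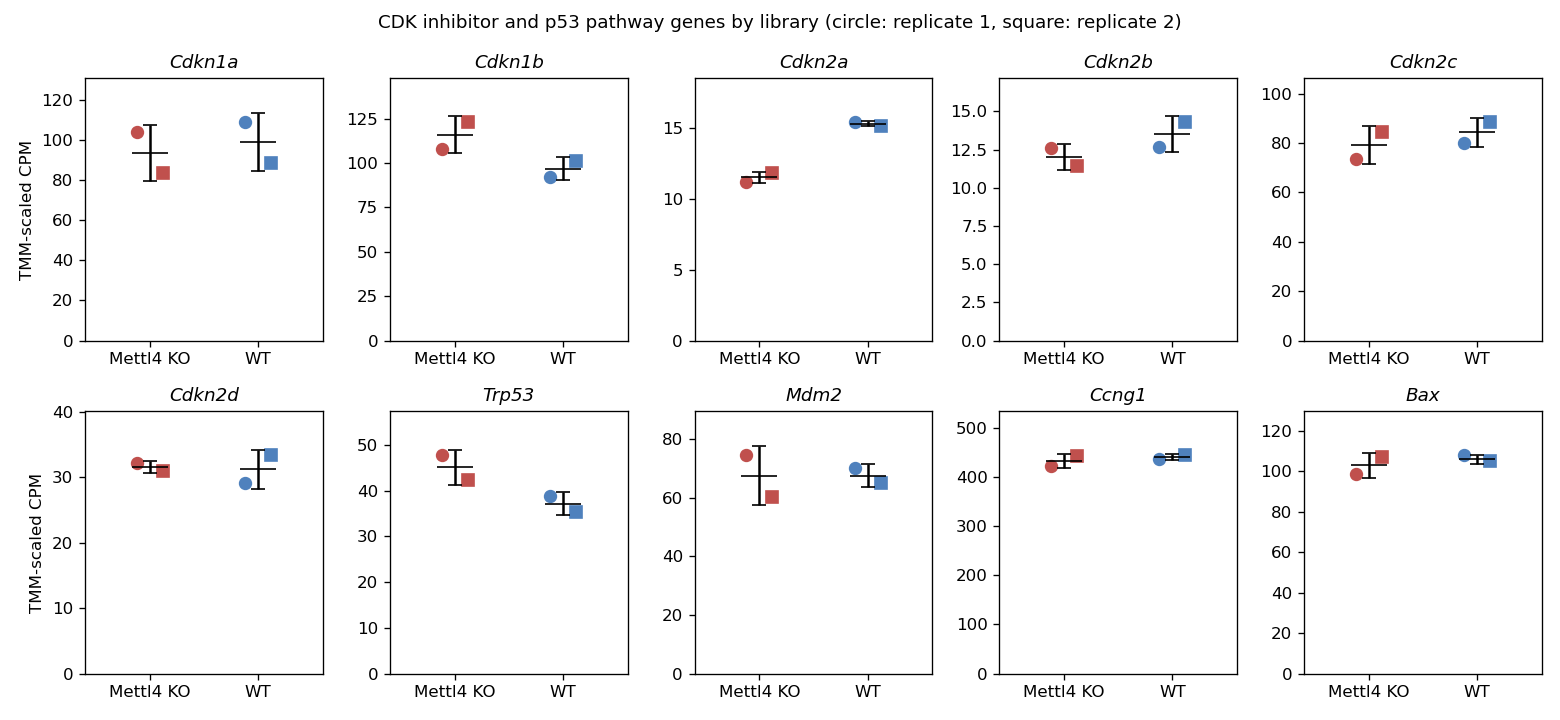
TMM-scaled CPM (vertical axes, from 0) of the 10 genes in each library, Mettl4 KO on the left and WT on the right of each panel. Circles are replicate 1 and squares replicate 2, and black bars give the mean and SD (n = 2). The groups stand apart in Cdkn1b, Cdkn2a, Cdkn2b and Trp53 and overlap in the other 6 panels.

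Per length, the p53 response gene Ccng1 was the most abundant of the 10, and Cdkn2b, Trp53 and Cdkn2a were the least. Levels between genes are compared as CPM per kb of merged exon, with exon lengths from an annotation of another build than the counts. Ccng1 ranged from 120 to 127 CPM per kb over the 4 libraries, and Bax from 62.5 to 68.4 CPM per kb. Cdkn2c followed at 27.4 to 33.0, Cdkn1a at 23.6 to 30.7, Cdkn1b at 20.2 to 27.0 and Cdkn2d at 18.5 to 21.2 CPM per kb, and from Cdkn2c to Cdkn2d each range overlapped the next. Mdm2 ranged from 11.9 to 14.7, Cdkn2a from 9.59 to 13.1, Trp53 from 8.76 to 11.8 and Cdkn2b from 8.19 to 10.3 CPM per kb, again with each range overlapping the next. The ranges parted between Ccng1 and Bax, between Bax and Cdkn2c and between Cdkn2d and Mdm2. Part of this order depended on the length used. Per kb of the longest annotated transcript, the mean level over the 4 libraries was 1.71 times as high for Cdkn1a (46.3 CPM per kb) and 1.62 times as high for Mdm2 (21.5 CPM per kb) as per kb of merged exon. Cdkn1a then stood above Cdkn2c (33.1 CPM per kb) with no overlap, and Mdm2 overlapped Cdkn2d (22.1 CPM per kb). Ccng1 and Bax remained the highest and Cdkn2a, Trp53 and Cdkn2b the lowest by either length. The mean per-length level of Ccng1 was above that of 98% of the 13560 protein-coding genes tested, and that of Cdkn2b above 65.6%. The highest mean, of Ccng1, was 13.5 times the lowest, of Cdkn2b.

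**Figure D3:**
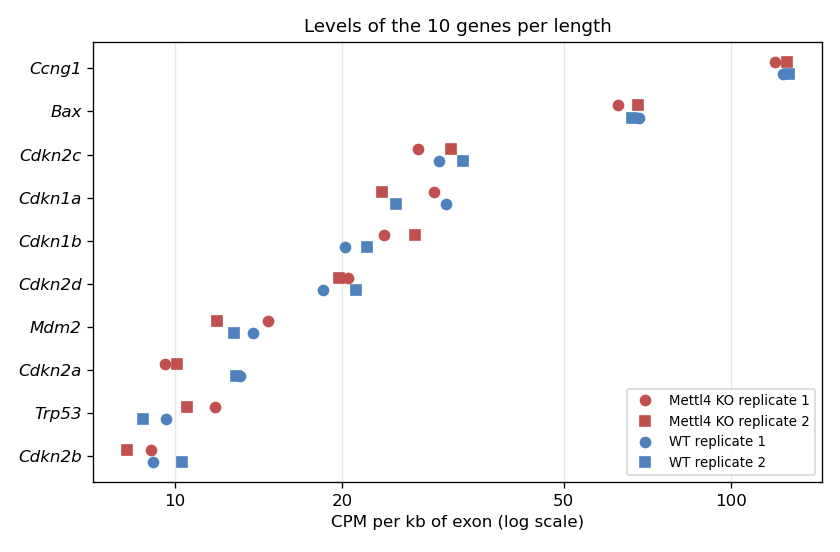
Level of each gene in CPM per kb of exon (horizontal axis, log scale) in each of the 4 libraries, with Mettl4 KO in red above WT in blue. Genes run from Ccng1 (120 to 127 CPM per kb) down to Cdkn2b (8.19 to 10.3 CPM per kb), and the libraries of one gene lie closer together than the step from Ccng1 to Bax or from Bax to Cdkn2c.

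Among the Cip/Kip inhibitors, Cdkn1a (p21, ENSMUSG00000023067, chromosome 17), the best known p53 target that stops the cycle, measured 104 and 83.7 CPM in KO libraries 1 and 2, against 109 and 88.7 CPM in WT libraries 1 and 2. The groups overlapped, and in each genotype library 1 was the higher. The gap between libraries of one genotype was 0.31 (KO) and 0.30 (WT) on the log2 scale, against a log2 fold change of -0.08 (SE 0.16, 95% interval -0.44 to 0.29). Without WT replicate 1 and without KO replicate 2 the sign turned, to 0.08 and 0.07. AC167363.2, an uncharacterised gene of the annotation, overlaps 7.68% of the exon length of Cdkn1a on the opposite strand, with 64 and 46 counts in KO and 40 and 56 in WT. The sources do not name the strand setting of the counting, so reads of this pair cannot be told apart there.

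Cdkn1b (p27, ENSMUSG00000003031, chromosome 6), which holds progenitors in G1 as they leave the cycle, measured 108 and 123 CPM in KO libraries, against 92.1 and 101 CPM in WT libraries. Both KO libraries lay above both WT libraries. The means were 116 ± 10.5 CPM in KO and 96.7 ± 6.50 CPM in WT (SD, n = 2 each). KO stood at 119% of WT with an interval from 95.7% to 149%, and the log2 fold change was 0.26 (SE 0.14, edgeR adjusted p above 0.99). It stayed positive, between 0.16 and 0.35, when each library was left out in turn. The third gene of this family, Cdkn1c, an imprinted inhibitor that is not among the 10, was low, at 5.07 and 9.52 CPM in KO and 5.06 and 5.37 CPM in WT.

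The INK4 inhibitors include the locus best known as a barrier to long culture. Cdkn2a (ENSMUSG00000044303, chromosome 4) makes 2 unrelated proteins from separate first exons: the downstream start gives p16Ink4a, an inhibitor of CDK4 and CDK6, and the upstream start gives Arf, which restrains Mdm2. The deposited value is 1 count per gene, so the 2 products cannot be told apart here. The 250 bases before each start, from RefSeq (GRCm38.p6, another build than the one of the counts), are shown because both feed that single count. They are written 5′ to 3′ on the gene's strand, with matches to the GC box GGGCGG, on either strand, in capitals.
Cdkn2a upstream start, chr4:89294620-89294869, strand minus: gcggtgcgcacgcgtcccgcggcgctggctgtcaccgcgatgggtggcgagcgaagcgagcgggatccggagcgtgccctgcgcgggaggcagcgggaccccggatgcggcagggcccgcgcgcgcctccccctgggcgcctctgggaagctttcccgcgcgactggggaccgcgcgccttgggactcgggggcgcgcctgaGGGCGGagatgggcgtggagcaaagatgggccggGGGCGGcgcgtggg
Cdkn2a downstream start, chr4:89282193-89282442, strand minus: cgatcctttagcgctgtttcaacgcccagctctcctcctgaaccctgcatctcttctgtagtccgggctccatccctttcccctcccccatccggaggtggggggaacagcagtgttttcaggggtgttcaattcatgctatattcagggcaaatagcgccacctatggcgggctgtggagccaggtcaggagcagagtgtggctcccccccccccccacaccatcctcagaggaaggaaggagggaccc
The upstream window holds 2 GC boxes and 40 CG dinucleotides, and the downstream window 0 and 7. Over the 32851 starts of the table the median was 6 CG dinucleotides, and 32.7% of windows held a GC box.

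Cdkn2a measured 11.2 and 11.8 CPM in KO libraries 1 and 2, against 15.4 and 15.1 CPM in WT libraries 1 and 2. Both KO libraries lay below both WT libraries, with little spread inside each genotype: the means were 11.5 ± 0.412 CPM in KO and 15.3 ± 0.195 CPM in WT (SD, n = 2 each). KO stood at 75.6% of WT with an interval from 54.9% to 104%, and the log2 fold change was -0.40 (SE 0.21, edgeR unadjusted p = 0.0799, adjusted p above 0.99). The counts behind it were 213 and 216 in KO and 204 and 248 in WT. Left-out libraries moved the log2 fold change only between -0.44 and -0.37. This was the smallest p of the 10 genes in edgeR, in DESeq2 (unadjusted p = 0.135) and in limma-voom (unadjusted p = 0.0715), and it passed no adjusted threshold.

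Its neighbour Cdkn2b (p15, ENSMUSG00000073802, chromosome 4), an inhibitor of the same kinases that responds to TGF-beta, measured 12.6 and 11.4 CPM in KO libraries, against 12.7 and 14.3 CPM in WT libraries. Both KO libraries lay below both WT libraries, but KO library 1 and WT library 1 were nearly level, on 239 and 168 counts, and overlapped with library totals as the scaling. The log2 fold change was -0.17 (SE 0.22, 95% interval -0.65 to 0.31), the widest interval of the 10. Cdkn2a and Cdkn2b are close paralogues in part, and the sources do not say how reads that match both were counted.

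The other INK4 genes were better covered. Cdkn2c (p18, ENSMUSG00000028551, chromosome 4), an inhibitor known to limit progenitor division in the embryonic brain, measured 73.7 and 84.4 CPM in KO libraries, against 80.1 and 88.5 CPM in WT libraries. The groups overlapped, at a log2 fold change of -0.09 (SE 0.15, 95% interval -0.42 to 0.23). Cdkn2d (p19Ink4d, ENSMUSG00000096472, chromosome 9), known to keep neurons out of the cycle, measured 32.2 and 31.0 CPM in KO libraries, against 29.1 and 33.4 CPM in WT libraries. The KO libraries lay between the WT libraries, and the log2 fold change was 0.02 (SE 0.17, 95% interval -0.36 to 0.40).

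Trp53 (ENSMUSG00000059552, chromosome 11) encodes p53, whose activity is set mostly by the stability of the protein and not by its RNA. It measured 47.8 and 42.3 CPM in KO libraries 1 and 2, against 38.9 and 35.4 CPM in WT libraries 1 and 2. Both KO libraries lay above both WT libraries, with means of 45.1 ± 3.89 CPM in KO and 37.2 ± 2.49 CPM in WT (SD, n = 2 each). KO stood at 121% of WT with an interval from 94.4% to 156%, at a log2 fold change of 0.28 (SE 0.16, edgeR unadjusted p = 0.118, adjusted p above 0.99). It was between 0.19 and 0.36 with each library left out in turn, but the groups overlapped when library totals were the scaling. In TMM-scaled values of Trp53, Cdkn1b and Cdkn2a the difference between genotypes was larger than the larger gap between libraries of one genotype. In the other 7 genes it was not. How many of all genes tested meet this was not counted, so it was not read as a result about these genes.

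The p53 response genes are shown with the 250 bases before their starts (RefSeq, GRCm38.p6), since p53 acts by binding DNA at its targets. Capitals mark matches to the p53 half-site, the consensus of 10 letters that reads the same on both strands. Sequences are written 5′ to 3′ on the gene's strand.
Cdkn1a upstream start, chr17:29090729-29090978, strand plus: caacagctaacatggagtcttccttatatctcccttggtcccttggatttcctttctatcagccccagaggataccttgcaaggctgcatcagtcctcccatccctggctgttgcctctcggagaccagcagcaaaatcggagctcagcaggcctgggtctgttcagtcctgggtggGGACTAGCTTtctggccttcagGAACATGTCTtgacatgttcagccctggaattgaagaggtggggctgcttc
Mdm2, chr10:117710759-117711008, strand minus: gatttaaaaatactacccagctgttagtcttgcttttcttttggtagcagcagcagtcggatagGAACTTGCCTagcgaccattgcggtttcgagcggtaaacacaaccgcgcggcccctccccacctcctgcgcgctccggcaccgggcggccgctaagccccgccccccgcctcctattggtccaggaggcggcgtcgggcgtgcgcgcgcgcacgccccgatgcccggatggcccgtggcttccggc
Ccng1, chr11:40755287-40755536, strand minus: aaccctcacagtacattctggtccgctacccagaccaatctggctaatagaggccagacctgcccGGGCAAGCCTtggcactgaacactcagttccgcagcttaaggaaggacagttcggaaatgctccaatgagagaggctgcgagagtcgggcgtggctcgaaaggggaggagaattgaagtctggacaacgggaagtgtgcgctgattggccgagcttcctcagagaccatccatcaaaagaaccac
Bax, chr7:45466899-45467148, strand minus: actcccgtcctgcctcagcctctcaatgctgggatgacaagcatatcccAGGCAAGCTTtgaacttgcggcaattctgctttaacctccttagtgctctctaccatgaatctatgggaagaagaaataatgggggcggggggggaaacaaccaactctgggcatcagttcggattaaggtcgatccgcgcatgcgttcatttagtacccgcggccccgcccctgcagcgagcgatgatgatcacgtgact
The upstream start of Cdkn1a has 2 matches, which begin 73 and 51 bases before the start, and its downstream start has none. Mdm2, Ccng1 and Bax have 1 match each, which begin 186, 185 and 201 bases before the start. Single matches also lie before Trp53 and before Cdkn2d, where the match overlaps a GC box. In all, 6 of the 13 starts of the 10 genes hold a match, against 7.13% of the 32851 starts of the table. A match is letters only, and no binding was measured. A single half-site is only part of a p53 site, and letters outside these windows were not searched. The marked stretches are therefore not shown to be the p53 sites of these genes. GGGCGG was found at 7 of the 13 starts against 32.7% of all, TATAAA at 1 (Trp53) against 12.4%, CACGTG at 1 (Bax) against 6.02%, TGTTTAC at 1 (Mdm2) against 3.17%, and TTTGGCGC and TTTCGCGC at 0 against 0.417% and 0.256%, each on either strand.

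For Cdkn1a, Mdm2, Ccng1 and Bax, the difference between genotypes was smaller than its standard error, as it also was for Cdkn2b, Cdkn2c and Cdkn2d. Mdm2 (ENSMUSG00000020184, chromosome 10), the ligase that p53 induces against itself, measured 74.6 and 60.3 CPM in KO libraries 1 and 2, against 70.3 and 64.9 CPM in WT libraries 1 and 2. The WT libraries lay between the KO libraries, and KO stood at 99.8% of WT with an interval from 78.5% to 127%. The sign of this difference turned with RLE scaling, to a log2 fold change of 0.01. As in Cdkn1a, library 1 was the higher in each genotype, by 0.31 in KO and 0.12 in WT on the log2 scale.

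Ccng1 (ENSMUSG00000020326, chromosome 11), the p53-induced cyclin G1, was the steadiest of the 10, at 422 and 442 CPM in KO libraries and 436 and 444 CPM in WT libraries. KO stood at 98.0% of WT with an interval from 76.2% to 126%, on counts of up to 8072 in a library. Bax (ENSMUSG00000003873, chromosome 7), which opens the outer mitochondrial membrane in apoptosis, measured 98.5 and 107 CPM in KO libraries, against 108 and 105 CPM in WT libraries. KO stood at 96.9% of WT with an interval from 78.3% to 120%. A gene on the same strand, Gm45808, overlaps 12.2% of the exon length of Bax, with 28 and 28 counts in KO and 10 and 28 in WT.

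Other p53 pathway genes gave no call either. This list of 33 genes, all tested, held p53 regulators and targets for arrest, repair and death. By edgeR 0 were called higher and 0 lower, 0 had an unadjusted p under 0.05, and DESeq2 and limma-voom likewise had 0 at both. The log2 fold changes were positive for 14 and negative for 19, from -0.72 to 0.22, with a median of -0.02. The lowest was that of Perp, a membrane protein of p53-driven death, named after its values were seen, which stood at 1.11 and 0.274 CPM in KO and 1.21 and 1.10 CPM in WT, so KO library 2 alone was low. The groups stood apart in 9 of 33, beside 27.4% of all genes. The smallest p values were those of Sesn1, a stress-induced brake on mTOR signalling (27.1 and 26.9 CPM in KO, 33.8 and 32.5 CPM in WT), and Pmaip1, the killer protein Noxa (10.5 and 9.69 CPM in KO, 13.3 and 11.8 CPM in WT). Eda2r, a death receptor, measured 153 and 156 CPM in KO against 132 and 138 CPM in WT, and Plk3, a stress kinase, 6.12 and 4.54 CPM in KO against 6.42 and 7.07 CPM in WT. Their edgeR adjusted p was above 0.99. The genes of this list that stood apart went in both directions, 3 above and 6 below WT.

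Within that list, the genes whose values over the 4 libraries were most like those of Cdkn1a were Aen, Phlda3 and Gtse1, at root mean square differences of 0.0247, 0.0393 and 0.061 in centred log2 CPM. Aen, a p53-induced nuclease, measured 101 and 79.4 CPM in KO libraries 1 and 2 and 103 and 82.6 CPM in WT libraries 1 and 2. Phlda3, a p53-induced inhibitor of Akt, measured 44.0 and 34.9 CPM in KO libraries 1 and 2 and 43.0 and 36.3 CPM in WT libraries 1 and 2. In these genes, as in Cdkn1a, the step between libraries 1 and 2 inside each genotype was larger than the step between genotypes. They were picked for likeness to Cdkn1a over these same libraries, so this shared pattern follows from the choice and says nothing about the list. With only 4 libraries to compare, 0.161% of all genes tested were closer to Cdkn1a than Aen was, and 2.47% were closer than Gtse1.

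Regulators known to set the level of the inhibitors and of p53 formed a list of 30, of which 29 were tested and Tbx2 fell under the low-count filter. By edgeR 0 were called, and the log2 fold changes, 20 above 0 and 9 below, had a median of 0.08. The smallest p belonged to Bmi1, the Polycomb protein that represses the Cdkn2a locus, which measured 161 and 203 CPM in KO libraries, against 127 and 145 CPM in WT libraries. Both KO libraries lay above both WT libraries, at a log2 fold change of 0.42 (SE 0.16, edgeR unadjusted p = 0.0279, adjusted p above 0.99). It was the 1 gene of the 29 at an unadjusted p under 0.05 in edgeR, in DESeq2 and in limma-voom, which rest on the same libraries and had 2.77%, 1.46% and 2.75% of all genes at that p, so 1 in 29 was not read as a result about the list. Hmga2, a chromatin protein of young neural stem cells that also lowers Cdkn2a, measured 15.6 and 14.4 CPM in KO libraries, against 11.8 and 10.3 CPM in WT libraries. Rnf2, the ligase that works with Bmi1, measured 108 and 146 CPM in KO and 97.1 and 111 CPM in WT, and its groups overlapped. The other Polycomb genes of the list went both ways, with groups that overlapped. Their log2 fold changes were 0.19 for Ezh2, -0.27 for Ring1, -0.18 for Cbx8 and -0.04 for Cbx7. Foxo4, a factor that can induce Cdkn1b, measured 15.1 and 17.7 CPM in KO and 13.6 and 13.2 CPM in WT. The groups stood apart in 5 of the 29, 4 above and 1 below, which is 17.2% beside 27.4% of all genes.

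The kinases and cyclins on which the inhibitors act were listed with Rb proteins, E2F factors and their partners, and Cdkn1c, itself an inhibitor. This list gave 0 calls among 19 tested, with 0 at an unadjusted p under 0.05 in edgeR, DESeq2 and limma-voom. Its log2 fold changes split into 9 positive and 10 negative, with a median at 100% of WT, and the highest was that of Cdkn1c, at 0.48. The smallest p was that of Ccne2, a cyclin of the G1 to S step, at 97.5 and 129 CPM in KO and 87.2 and 94.8 CPM in WT. Tfdp2, a partner of the E2F factors, measured 89.5 and 86.1 CPM in KO and 99.7 and 107 CPM in WT, and its relative Tfdp1 measured 196 and 225 CPM in KO and 186 and 189 CPM in WT.

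The 13 other genes listed for mitochondrial apoptosis, some that promote death and some that restrain it, gave 0 calls. They had 0 at an unadjusted p under 0.05 in edgeR, DESeq2 and limma-voom. Log2 fold changes ran from -0.10 to 0.20 around a median of 0.06, 8 above 0 and 5 below, and these signs mix both kinds of gene. Apaf1, the scaffold of the apoptosome and a p53 target, measured 65.5 and 57.8 CPM in KO and 57.4 and 50.2 CPM in WT. Bid, a trigger of Bax, measured 14.2 and 12.8 CPM in KO and 12 and 11.6 CPM in WT. Bok, a relative of Bax, measured 21.4 and 24.3 CPM in KO and 23.6 and 16.8 CPM in WT, and Bak1, the other main pore former, 28.2 and 37.9 CPM in KO and 31.5 and 30.0 CPM in WT.

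**Figure D4:**
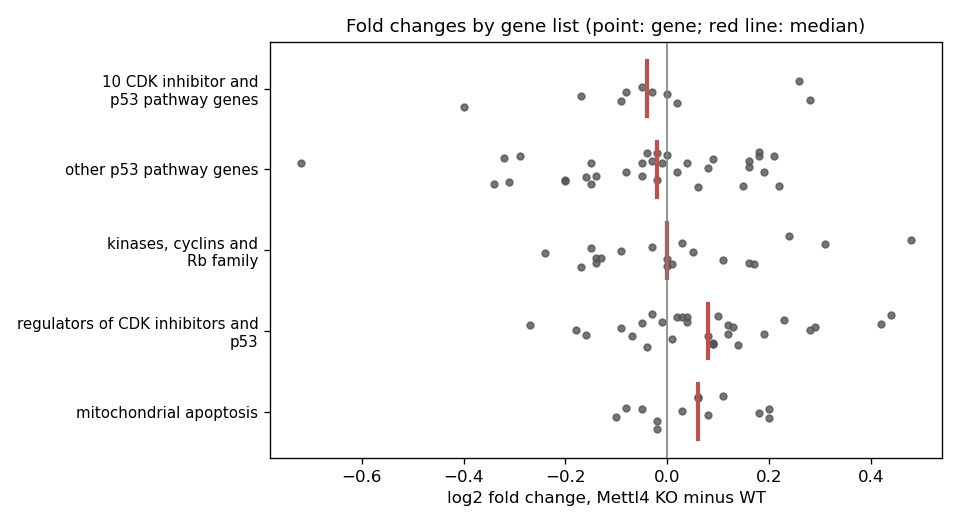
Log2 fold changes, Mettl4 KO minus WT (horizontal axis), of the 10 genes and of the tested genes of the other lists, 1 point a gene, with red lines at the medians (-0.04, -0.02, 0.00, 0.08 and 0.06 from top to bottom). Points of each list lie on both sides of 0, and none was called.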

How the data were processed

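RNA was measured in 2 KO and 2 WT libraries. Each deposited file holds raw counts of reads per gene, made with STAR 2.7.10, featureCounts and build GRCm39 per the submitters' processing notes. Settings for strand and multiply mapped reads are not named. Identifiers without version were paired with GENCODE vM21 (GRCm38), which matched 52133 of 55414 and gave symbols, gene types and exon lengths; promoter letters are RefSeq's (GRCm38.p6). Genes passing filterByExpr (minimum count 10) were scaled by TMM and tested with edgeR 4.0.16 (R 4.3.3): glmQLFit with robust=TRUE, glmQLFTest, Benjamini-Hochberg adjustment over all genes tested. A standard error is the fitted log2 value divided by the root of F, and intervals are at 95%. Alternatives were DESeq2 1.42.0, limma-voom (limma 3.58.1), RLE factors, library totals, other filters, robust=FALSE, protein-coding genes only, a replicate block and left-out libraries. On simulated libraries, drawn independently, the fitted log2 fold changes were checked for bias, and no error rate is taken from that check. Libraries of one genotype differed by more than counting noise (chi-square per gene 19.6 in KO and 12.2 in WT). Members and lists were chosen with earlier results of these data known. Named genes are the 10, Mettl4, the 4 of smallest p in each other list, and the 3 of the p53 list most like Cdkn1a. Cell type markers and Tbx2 (untested) come beside these. Perp and the Polycomb genes Ezh2, Ring1, Cbx7 and Cbx8 were named after their values were seen.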

Additional observations from a re-analysis of the deposited data

How the results depend on the processing

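Among the 10 genes and the other 4 lists, 0 genes were called under each of the 13 alternatives to the reported fit. The count over all genes was 1 as reported, 41 without a low-count filter, 6 with DESeq2 and 9 with the replicate block. It ranged from 1 to 47 when a library was left out (31 without WT replicate 1, 17 without WT replicate 2, 47 without KO replicate 1), where the single library left in a genotype is taken to vary like the rest; the cause was not tested. No label says that replicate numbers mark pairs. Over all genes tested, deviations of same-numbered libraries from their group means correlated at 0.228, and the replicate block changed no call among the 10 genes. Of 130 recomputed log2 fold changes of the 10 genes, 118 kept their sign and call and 12 changed sign. With each library left out in turn, Cdkn1a ran from -0.24 to 0.08, Cdkn2c from -0.19 to 0.00, Cdkn2d from -0.08 to 0.13, Mdm2 from -0.16 to 0.14, Ccng1 from -0.06 to 0.00 and Bax from -0.11 to 0.01. Mdm2 also turned sign with RLE factors, without a low-count filter and with DESeq2, at 0.01 each. The number of genes with groups apart was 4 with RLE factors and 3 with library totals. Of 20 group levels, 0 moved by more than 1 SD with library totals and 13 did with the longest transcript as length, which raised Cdkn1a 1.71 times and Mdm2 1.62 times and changed the order of the middle genes. Only 2 libraries a genotype limit what could be called.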
